A study of Mus musculus with 6 samples.

Results

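The baseline described here is the ventral prostate of young wild type mice, read from the green (Cy3) channel of 6 two-colour microarrays. Every array carried labelled RNA of 2.5-month-old wild type mice of the FVB background in green, so the 6 green channels are 6 samples among the 12 channels of the study. The red (Cy5) channel held ventral prostate RNA of the 15-LOX2 transgenic line fl26 at 2.5 months (2 arrays), of the 15-LOX2sv-b line svb9 at 2.5 months (2 arrays), or of wild type mice at 15 months (2 arrays), all FVB. RNA came from pools, of 3 mice by the sample labels and of lobes from 6 mice by the series' design. The dyes were not swapped. Neither the promoter of the transgenes nor the use of 1 young pool on several arrays is given in the sources used here. Each array is called below by its red partner and its replicate number, but every level is that of the young wild type channel unless a ratio is named.

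The prostate of the mouse has several lobes, and the ventral lobe is lined by tall luminal cells that secrete proteins and small molecules into the seminal fluid under the control of androgens. Probasin (Pbsn) and spermine binding protein (Sbp) are classic androgen-dependent secretions of this epithelium, and Krt8 and Krt18 encode the paired keratins of luminal cells. Basal cells, smooth muscle, fibroblasts, vessels and immune cells make up the rest of the tissue. In RNA of whole tissue, fewer cells of a type and less RNA per cell cannot be told apart.

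A level is the log2 of a spot's mean green intensity minus the median of its local background, averaged over the arrays, and 1 unit is a 2-fold difference in brightness. Each gene is represented by its brightest probe. Brightness depends on the probe as well as on the transcript, so the order of genes ranks spots and does not count molecules. Of 20849 named genes, 14444 (69.3%) were flagged well above background in green on all 6 arrays, 3434 on 1 to 5 arrays and 2971 on none. Per array, 60.3% to 73.8% of the 41174 probes carried that flag, and 12 to 19 probes were saturated. The flag is permissive: 328 of 850 olfactory receptor genes (38.6%), which this tissue is not known to use, passed it on all 6 arrays, with a median level of 4.45, against 3.56 for the negative control spots. The level that 95% of olfactory receptor genes stayed under, 6.54, is therefore given beside the flag as a second reference, and 39.3% of all named genes lay above it.

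The brightest spots were of mixed kinds, with ribosomal proteins the most frequent. Of the 30 brightest genes, 13 encode ribosomal proteins, among them Rplp1, Rplp0, Rplp2, Rps23 and Rps12, and Eef1a1, which brings aminoacyl-tRNA to the ribosome, and Rack1, a ribosome-bound scaffold, stood beside them. Sbp, the trypsin inhibitor Spink1, the beta-defensin Defb50, the microseminoprotein Msmb, the carbonyl reductase Cbr2, the granulin precursor Grn and the tetraspanin Tspan1 were in the same group. Of the 12 prostate secretory genes listed, 4 were among the 50 brightest: Sbp, Spink1, Msmb and Pbsn. The 30th gene, Tspan1, lay at 15.03 and the next, Rps27a, at 14.98. Of the 50 brightest genes, 20 encode ribosomal proteins, and 11 of the 50 brightest probes had no usable gene name.

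**Figure D1:**
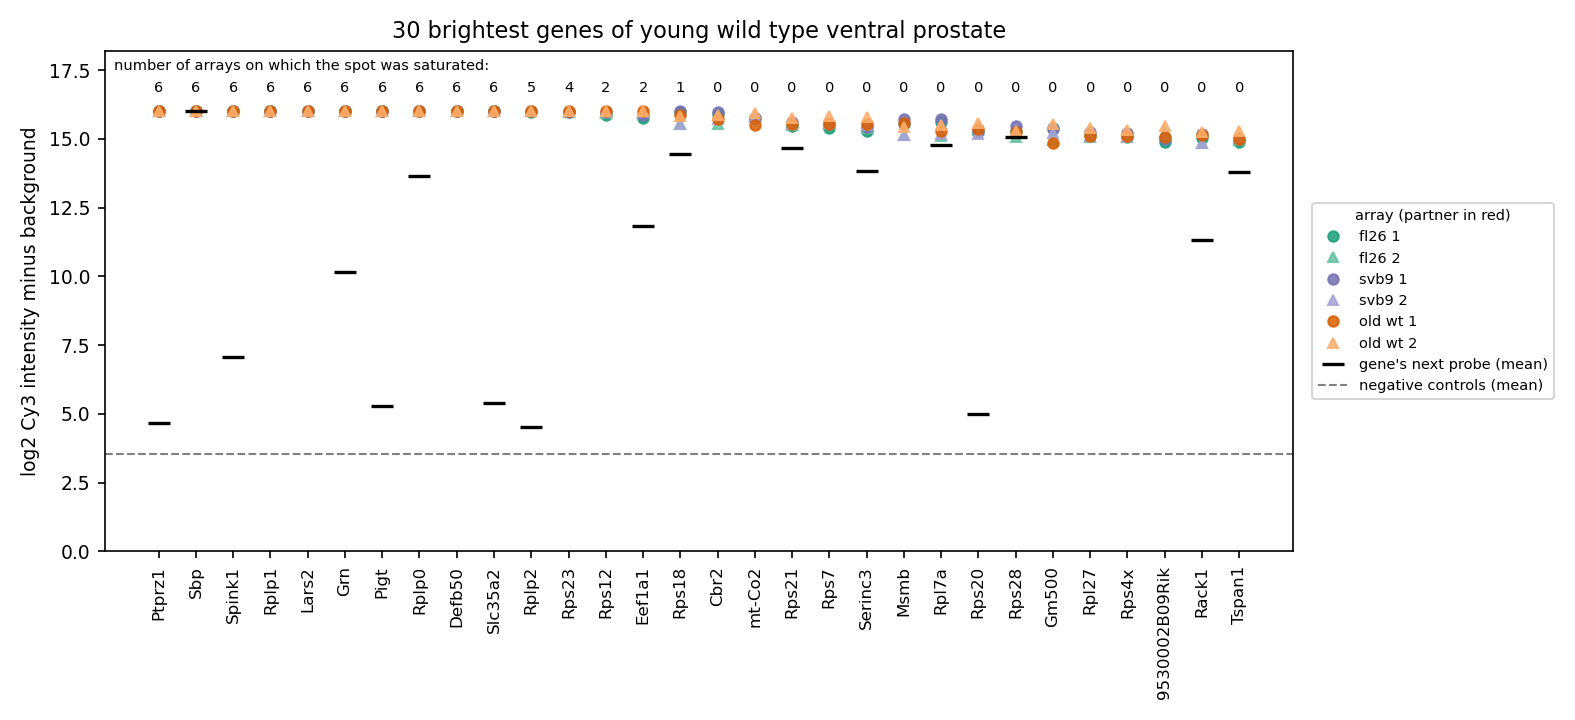
Log2 green intensity minus background of the 30 brightest genes, 1 point per array (circles, replicate 1; triangles, replicate 2), with the gene's next brightest probe as a black bar and the mean of the negative controls as a dashed line. The digits count the arrays on which the spot was saturated: 10 genes were saturated on all 6 arrays, and several of them have another probe far below.

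Saturation set the top of this order. Ptprz1, Sbp, Spink1, Rplp1, Lars2, Grn, Pigt, Rplp0, Defb50 and Slc35a2 were saturated on all 6 arrays at about 15.99, the ceiling of the scanner, and have no order among themselves. Another 5 genes, Rplp2, Rps23, Rps12, Eef1a1 and Rps18, were saturated on 1 to 5 arrays. The brightest gene that was never saturated was Cbr2, at 15.90, 15.54, 15.97, 15.71, 15.71 and 15.86 on fl26 replicates 1 and 2, svb9 replicates 1 and 2 and old wild type replicates 1 and 2, the order used for all values below. The mitochondrial transcript mt-Co2, a cytochrome oxidase subunit, followed at 15.75, 15.81, 15.75, 15.79, 15.51 and 15.94. Its lowest array was old wild type replicate 1 and its highest old wild type replicate 2.

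Other probes of the same genes did not all repeat these levels. For Sbp a second probe was also saturated on all 6 arrays, and the next probes of Rps28 (15.06), Rpl7a (14.78) and Rps21 (14.67) were nearly as bright. The third probes of Rps28, Rpl7a and Rps21 were dimmer, at 13.85, 12.17 and 13.46. Ptprz1, a receptor phosphatase known from glia, had a saturated probe and 2 others at 4.66 and 3.57, near the negative controls. Pigt, an enzyme subunit of GPI anchor attachment, had its second probe at 5.27, the nucleotide sugar transporter Slc35a2 at 5.41, and Spink1 at 7.05. Among the 26 genes of the 50 brightest with several probes, 13 had their next probe more than 16-fold below. Each gene is ranked by its brightest probe, and which probe reads the named transcript was not tested. The second probes of Rplp2 (4.54), Grn (10.15) and Rps20 were also far below the first. The places of Ptprz1, Pigt, Slc35a2, Spink1, Rplp2, Rps20 and Grn thus rest on 1 probe each. So do those of genes with only 1 probe, among them Rplp1, Lars2, Defb50, Cbr2, mt-Co2, Msmb, Pbsn and Krt18, which had no other probe to compare.

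All 12 genes of the list of prostate secretory products were well above background on all 6 arrays, and 10 of the 12 lay above 6.54, with a median of 12.46 against 5.74 for all named genes. Msmb, a secreted protein of seminal fluid, lay at 15.55, 15.15, 15.73, 15.15, 15.58 and 15.44. Pbsn, a lipocalin, lay at 15.06, 14.53, 15.39, 14.55, 15.51 and 14.81 and ranked 32. Both were lower on every array of replicate 2 than on any array of replicate 1. The disulfide isomerase family member Agr2 averaged 13.93 ± 0.13 (SD, n = 6 arrays), the zinc-binding glycoprotein Azgp1 12.50 ± 0.25 and the apolipoprotein Apof 12.30 ± 0.13. Clu, the secreted chaperone clusterin, varied most on the log2 scale, at 12.90, 13.22, 12.71, 11.49, 12.43 and 11.78, with its highest value on fl26 replicate 2 and its lowest on svb9 replicate 2. The metallothionein Mt3 (7.60), the ribonuclease angiogenin Ang (7.26), lactotransferrin Ltf (6.42) and the kallikrein Klk1 (6.34) stood at the dim end, the last 2 no brighter than the upper olfactory receptor genes. Mt3 is also a member of the metallothionein and zinc list below, so it counts in each of these lists, and whether it is secreted was not tested.

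Secretions that mark other lobes or the seminal vesicle were dim. Of 14 such genes measured, 5 were well above background on all 6 arrays, 3 on 1 to 5 arrays and 6 on none, and 0 of 14 lay above 6.54. The brightest were Ceacam10 (5.49) and Tgm4 (5.40), a transglutaminase of the secretion of the anterior lobe. The seminal vesicle secretory proteins Svs2, Svs3a, Svs4 and Svs6 and the genes Pate4 and Crisp1 were not well above background on any array, with means of 3.61 to 3.92. Svs5 lay at 5.02, 3.79, 4.92, 4.17, 3.82 and 4.14 and passed the flag on 3 arrays. The defining markers of the seminal vesicle were thus at or near the negative controls in these pools.

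The promoter windows of a bright pair and of a dim gene are printed to show what the 5 prime ends of these secretory genes hold; they come from RefSeq (GRCm38.p6), run 5 prime to 3 prime on the gene's strand and span 250 bases before to 50 bases after an annotated start. Capitals mark TATAAA on the gene's strand and AGAACA on either strand (read as TGTTCT on the other), the hexamer core of the glucocorticoid response element. Sbp has 3 annotated starts, of which 1 is shown, chr17:23941668-23941967 on the plus strand. The Pbsn window is chrX:77853451-77853750 on the minus strand, and that of Svs5, whose probe lay near background, is chr2:164332515-164332814 on the plus strand.
Sbp: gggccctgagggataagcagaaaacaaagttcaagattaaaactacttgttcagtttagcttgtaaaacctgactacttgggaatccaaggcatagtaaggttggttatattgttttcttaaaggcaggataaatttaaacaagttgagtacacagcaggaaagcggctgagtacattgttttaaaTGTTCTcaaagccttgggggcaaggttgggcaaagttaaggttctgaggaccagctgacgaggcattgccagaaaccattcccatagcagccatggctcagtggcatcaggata
Pbsn: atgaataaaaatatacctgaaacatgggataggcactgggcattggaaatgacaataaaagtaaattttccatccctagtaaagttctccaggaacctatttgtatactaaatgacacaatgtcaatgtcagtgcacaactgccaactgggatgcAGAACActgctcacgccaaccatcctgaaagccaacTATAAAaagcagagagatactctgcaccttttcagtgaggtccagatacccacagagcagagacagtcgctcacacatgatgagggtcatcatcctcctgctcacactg
Svs5: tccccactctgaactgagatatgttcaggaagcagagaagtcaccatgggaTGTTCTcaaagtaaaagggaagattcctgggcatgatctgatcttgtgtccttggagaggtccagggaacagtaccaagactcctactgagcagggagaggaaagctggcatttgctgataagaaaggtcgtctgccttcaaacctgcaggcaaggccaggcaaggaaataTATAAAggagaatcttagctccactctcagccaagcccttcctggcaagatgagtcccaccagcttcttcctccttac
The Pbsn window holds AGAACA at bases 156 to 161 and TATAAA at bases 192 to 197, and that of Sbp holds TGTTCT at bases 187 to 192 and no TATAAA. The dim Svs5 holds both as well, TGTTCT at bases 52 to 57 and TATAAA at bases 223 to 228. Among 32544 promoter windows of this length, 18.9% hold AGAACA or TGTTCT and 8.3% hold TATAAA. Among 43 windows of the 37 genes of the 50 brightest that matched, the shares are 23.3% and 11.6%. Among 10 windows of 8 secretory genes, 3 hold AGAACA or TGTTCT and 1 holds TATAAA. Both letter strings are thus found in bright and dim genes, and a match is a description of the letters only.

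Luminal markers were present, as the tissue label has it. All 22 luminal genes were well above background on all 6 arrays and 18 of 22 lay above 6.54, with a median of 10.01. Krt18 lay at 14.72, 14.34, 14.81, 14.30, 14.56 and 14.50 and ranked 45. Krt8 lay at 12.99, 12.51, 13.10, 12.58, 12.66 and 12.85, and its second probe averaged 12.02. The third luminal keratin of the list, Krt19, averaged 11.40 ± 0.40, and the protease inhibitor Spint2 13.24 ± 0.20. Adhesion and junction genes followed, with E-cadherin Cdh1 at 11.69 ± 0.17, Cldn7 at 10.82 ± 0.31 and Epcam at 10.77 ± 0.19. The prostate regulators Hoxb13 (11.49 ± 0.30) and Foxa1 (10.95 ± 0.19) were clear of background. Among the luminal genes under 6.54 were Psca (6.30), Prom1 (6.06) and Muc1 (5.16).

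Basal markers were also present. Of 15 basal genes, 13 were well above background on all 6 arrays and 12 lay above 6.54, with a median of 8.13. Perp (11.86 to 12.18 over the arrays), Krt15 (11.23 ± 0.13) and Krt5 (9.53 ± 0.37) led, and Trp63, the p63 regulator that defines basal cells, lay at 8.39, 8.80, 8.57, 8.59, 7.61 and 8.77, with a second probe at 4.20. Old wild type replicate 1, the dimmest array as a whole (median of all probes 4.48), was the lowest for Trp63. The desmosomal genes Dsg3 (4.59) and Dsc3 (3.65, not well above background on any array) were at the bottom. Among 34 keratins, 13 lay above 6.54, and after Krt18, Krt8, Krt19, Krt15 and Krt5 came Krt13 (9.26) and Krt23 (8.62).

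Smooth muscle had the highest median of the stromal lists, 10.38. All 14 genes were well above background on all 6 arrays and 11 of 14 lay above 6.54. Transgelin Tagln (14.05 ± 0.24), the actin Acta2 (13.67 ± 0.18), the light chain Myl9 (13.26 ± 0.22) and calponin Cnn1 (12.90 ± 0.23) led. Other probes averaged 10.42 for Tagln and 11.08, 10.95, 7.74 and 4.02 for Acta2. Of 18 fibroblast and matrix genes, 18 passed the flag and 11 lay above 6.54, led by decorin Dcn (12.31 ± 0.16, second probe not well above background on any array) and the collagens Col1a1 (10.66 ± 0.30, other probes 5.59 and 4.38) and Col1a2 (10.49 ± 0.31). Endothelial genes were dimmer, with 3 of 15 above 6.54: Ly6c1 (9.64), Flt1 (7.01) and Emcn (6.66). The median endothelial gene lay at 5.96, close to the 5.74 of all named genes.

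Markers of blood and immune cells differed by lineage. All 14 macrophage genes passed the flag and 5 of 14 lay above 6.54, with lysozyme Lyz2 (10.64 ± 0.30, second probe 4.78) and cathepsin S Ctss (9.12 ± 0.14) brightest. Of 14 T and NK cell genes, Cd3e (7.83) and Nkg7 (6.68) lay above 6.54, whereas Cd3d (4.32), Cd3g (4.47), Cd8a (4.36) and Lck (4.33) did not, and the second probes of Cd3e (4.16) and Nkg7 (4.30) were also dim. None of 11 B and plasma cell genes lay above 6.54; Cr2 was the brightest at 6.01, and Cd79a lay at 4.36. The hemoglobin genes Hbb-bt (9.59) and Hba-a1 (9.22) were well above background, while the erythroid membrane gene Epb42 was not on any array.

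Neuroendocrine and nerve markers stayed low: of 13 genes, 9 passed the flag on all 6 arrays and 0 lay above 6.54. Sox10 (5.84) and the granin Chga (5.52) were the brightest, and synaptophysin Syp, Chgb and Scg2 were not well above background on any array. Adipocyte genes gave 2 of 10 above 6.54, Pnpla2 (10.57) and Fabp4 (9.80), which other cells also express, while adiponectin Adipoq lay at 4.49 and leptin Lep at 4.15. Skeletal muscle genes gave 4 of 10, the actin Acta1 (10.11), the myosins Myh1 (8.48) and Myh2 (7.89) and troponin Tnnt3 (7.74), but the second probes of Myh1 (4.29) and Tnnt3 (4.18) were near background and Ckm, the muscle creatine kinase, lay at 5.09.

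**Figure D2:**
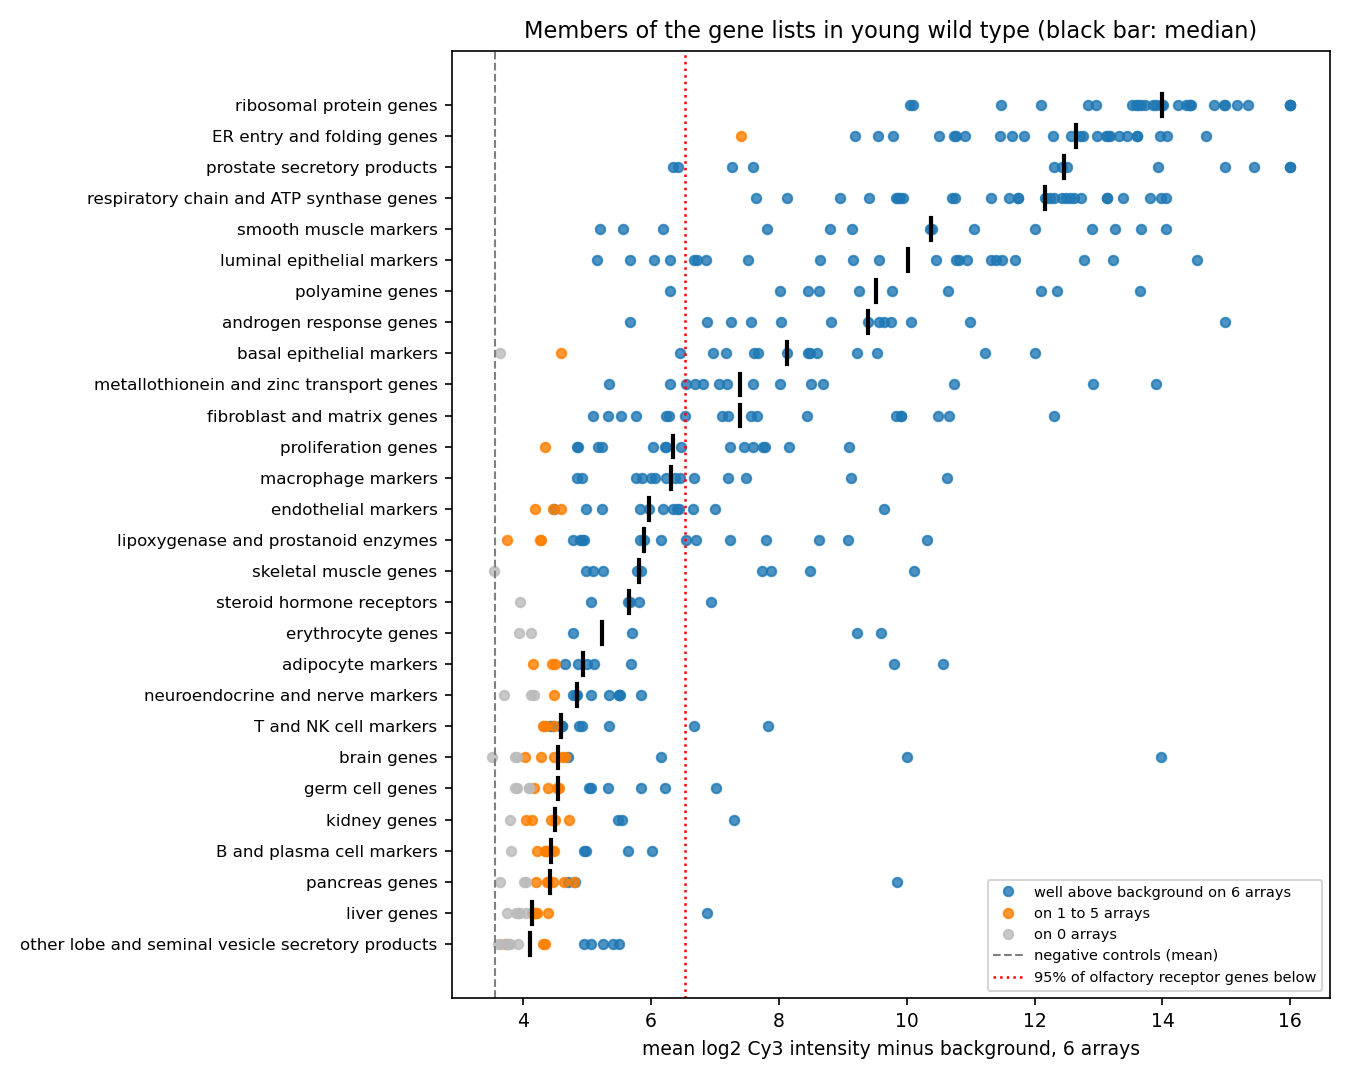
Mean log2 green intensity minus background over 6 arrays for every measured member of the 28 gene lists, ordered by list median (black bars); colours give on how many arrays a gene was well above background, the dashed line is the mean of the negative controls and the dotted line the level that 95% of olfactory receptor genes stayed under. Ribosomal, ER, secretory and respiratory genes lie to the right, and the markers of liver, pancreas, B cells and seminal vesicle lie near the controls.

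Genes of other organs gave the reference for absence. Of 11 liver genes, 1 passed the flag on all 6 arrays (Tat, 6.88), and albumin Alb lay at 4.18. In the kidney list 1 of 9 lay above 6.54 (Aqp2, 7.30), in the germ cell list 1 of 14 (Prm1, 7.02) and in the pancreas list 1 of 12, the chymotrypsinogen Ctrb1 at 9.85, whereas the insulin genes Ins1 and Ins2 both lay at 4.38. In the brain list the synapsin gene Syn1 stood out, with 1 probe at 13.99, a second at 12.35 and 2 others at 4.95 and 4.51, and the myelin gene Mbp lay between 9.77 and 10.16, with its second probe at 5.26. The neuronal genes Neurod1, Neurod6 and Gad2 were not well above background on any array. Vomeronasal receptors gave 31 of 128 genes (24.2%) with the flag on all 6 arrays, at a median of 4.29.

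The secretory machinery was bright as a list, though its members reached down to 7.41. Of 26 genes for entry into and folding in the endoplasmic reticulum, 25 passed the flag on all 6 arrays and 26 lay above 6.54, with a median of 12.65. Txndc7, a disulfide isomerase, averaged 14.67 ± 0.17, and the chaperones Hsp90b1 and Hspa5 averaged 14.08 ± 0.10 and 13.97 ± 0.13. All 28 ribosomal protein genes of the list lay above 6.54 (median 13.99). So did all 29 genes of the respiratory chain and ATP synthase (median 12.16), led by Cox6a1 (14.06) and Atp5b (13.99, other probes 11.28 and 9.29). Both lists belong to every cell, and their medians lay above the 95th percentile of all genes with the flag on all 6 arrays, 11.08.

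Genes for 2 small molecules that the prostate is known to handle, polyamines and zinc, were also measured in full. All 10 polyamine genes passed the flag, and the enzymes that commit precursors to the pathway were the brightest: Amd1, which makes decarboxylated S-adenosylmethionine, at 13.64 ± 0.13 and ornithine decarboxylase Odc1 at 12.34 ± 0.19. Spermidine synthase Srm averaged 10.64 and spermine synthase Sms 8.03. Other probes lay at 10.40 for Amd1, 10.78 and 8.49 for Odc1 and 5.92 for Sms. Of the metallothioneins, Mt2 (13.91 ± 0.14) and Mt1 (10.74 ± 0.36, second probe 5.65) were bright and Mt4 (7.06, second probe 3.69) was dim. The zinc transporter Slc39a7 averaged 12.92 ± 0.17, and the exporter Slc30a2 lay at 8.10, 6.49, 8.01, 6.50, 7.77 and 6.31, high on every array of replicate 1 and low on every array of replicate 2.

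Receptors of steroid hormones had dim probes, whereas 12 of the 13 androgen response genes measured lay above 6.54, with a median of 9.39. Esr1 was the one receptor of 6 above 6.54, at 6.94 ± 0.22, and its second probe averaged 4.11, not well above background on any array. Nr3c2 averaged 5.81, Nr3c1 5.64 and Esr2 5.07, and the progesterone receptor Pgr (3.96) was not well above background on any array. A dim probe sets no limit for a receptor's transcript.

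Among lipoxygenases, the gene family of the transgenes, Alox12b (7.24, second probe 3.77) and Alox12 (6.71, second probe 5.48) lay above 6.54. Alox8, the mouse counterpart of human 15-LOX2, lay at 4.85, 3.42, 4.93, 3.27, 2.75 and 3.25, and was well above background on 1 array. Alox15 averaged 4.78, the 5-lipoxygenase activating protein Alox5ap 5.89 and Aloxe3 4.27. The endogenous counterpart was thus near the negative controls in young wild type pools. Of the Hox genes, Hoxb13 was the brightest of 38 at 11.49, 24 of 38 passed the flag on all 6 arrays and 10 lay above 6.54, and none of the 3 genes of paralogue group 1 passed it. Hoxc5 was second at 9.93, with a wide spread between arrays, followed by Hoxa7 at 8.32.

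Array by array, the 6 channels were alike in rank, and in detail the fl26 and svb9 arrays split by replicate number. Over 14429 unsaturated genes, the pairs with the same replicate number among the fl26 and svb9 arrays differed by a median of 0.067 (both replicate 1) and 0.078 (both replicate 2) log2 units after centring, and correlated at 0.9974 and 0.9973. Replicate 1 and replicate 2 of the same partners differed by 0.287 (fl26) and 0.261 (svb9). Old wild type replicate 1 did not follow its number: it lay 0.251 and 0.268 from the other replicate 1 arrays and 0.145 to 0.193 from the replicate 2 arrays. The fl26 and svb9 replicate 1 arrays, which share the first Feature Extraction date, thus differed by 0.251 to 0.29 from every array of another date. The correlations share probes and their base composition and are given as a description.

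**Figure D3:**
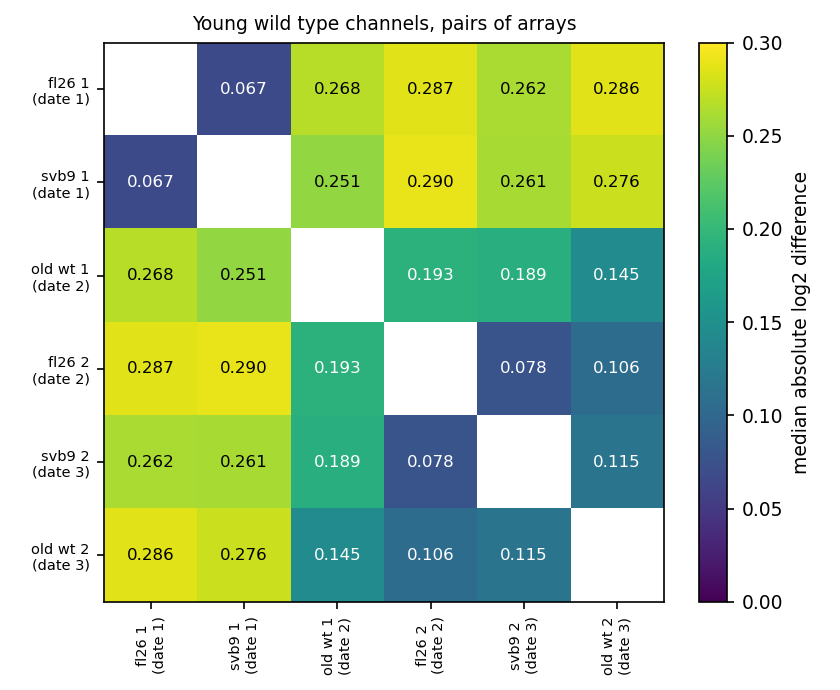
Median absolute difference in log2 green intensity between each pair of young wild type channels over 14429 genes, each array centred on its median, with the Feature Extraction date group of each array. The fl26 and svb9 arrays of the same number are nearest (0.067 and 0.078). Old wild type replicate 1 lies nearer to the replicate 2 arrays than to the other replicate 1 arrays.

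Tests with limma covered 27772 probes on quantile-normalized values. The red partner (fl26, svb9 or old wild type), which was not in the green channel, was associated with 0 probes at an adjusted p below 0.05 (0%; 638 at an unadjusted p below 0.05). The date of Feature Extraction, the step that turns a scan into spot values, was associated with 1745 probes (6.28%), a count that went from 0 without fl26 replicate 1 or svb9 replicate 1 to 7785 without fl26 replicate 2, with 7379 without old wild type replicate 1, 10 without svb9 replicate 2 and 13 without old wild type replicate 2. Replicate number, a test added after the arrays had been compared, was associated with 4789 probes (17.2%), 2302 (8.29%) higher and 2487 (8.96%) lower on replicate 2. The 3 arrays of replicate 1 and the 3 of replicate 2 did not overlap for 9720 probes (35%). Leaving out 1 array gave 1407 (without fl26 replicate 2), 1738 (svb9 replicate 2), 2041 (svb9 replicate 1), 2449 (fl26 replicate 1) and 2868 (old wild type replicate 2) probes, and 10497 without old wild type replicate 1. Values with plain background subtraction and no added offset, scaled to the 75th percentile in place of quantiles, gave 721. Below, 75th percentile scaling means this fit unless the offset is named. The values with the offset of 50, scaled in the same way, gave 4545.

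Differences by replicate number were mostly small: 34 of the 4789 probes (0.71%) differed more than 2-fold. The tested values include an added offset of 50, which shrinks the log2 differences of dim probes. Date and replicate number overlap, since both arrays of the first date are replicate 1 and both of the third are replicate 2. Within the second date, old wild type replicate 1 and fl26 replicate 2 differed in the same direction at 4788 of the 4789 probes, a pair that also enters the test itself, and with the date as a term 1106 probes passed. If arrays of 1 number share a pool, these p values measure the spread between hybridizations and not between mice.

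Some secretory and luminal genes were higher on replicate 1. In the secretory list 4 of 12 were higher on replicate 1 and 0 on replicate 2 (median -0.14), against 8.96% and 8.29% of all probes. Leaving out 1 array gave 3 to 5 higher on replicate 1, in fits that called 1407 to 10497 probes in all. Pbsn fell by 0.62 ± 0.10 (SE) from replicate 1 to replicate 2 on the normalized log2 scale (limma adjusted p = 0.00602), a ratio of 1.53-fold, and by 0.83 within the second date. Msmb fell by 0.39 (adjusted p = 0.00329) and Mt3 by 0.53 (adjusted p = 0.00218), and both kept an adjusted p below 0.05 without any 1 array, as did Pbsn. Under 75th percentile scaling Pbsn and Msmb kept their direction and lost the call, and Msmb also lost it with the date as a term. The same scaling of the values with the offset kept the calls of Pbsn and Msmb, and 4 of the 12 listed genes passed. Klk1 fell by 0.28 (limma adjusted p = 0.0493), a call that held only without old wild type replicate 1 among the 6 fits that left out an array. Agr2, Azgp1, Apof and Clu did not pass, and the difference of Clu was -0.41 ± 0.41 (SE). Bright genes as a whole went both ways: of the 50 brightest, 6 were higher on replicate 2 and 5 on replicate 1. Spink5, Gsn and 9530002B09Rik, which are not in the secretory list, were among the 6. The calls of Spink5 and Gsn held without any 1 array.

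**Figure D4:**
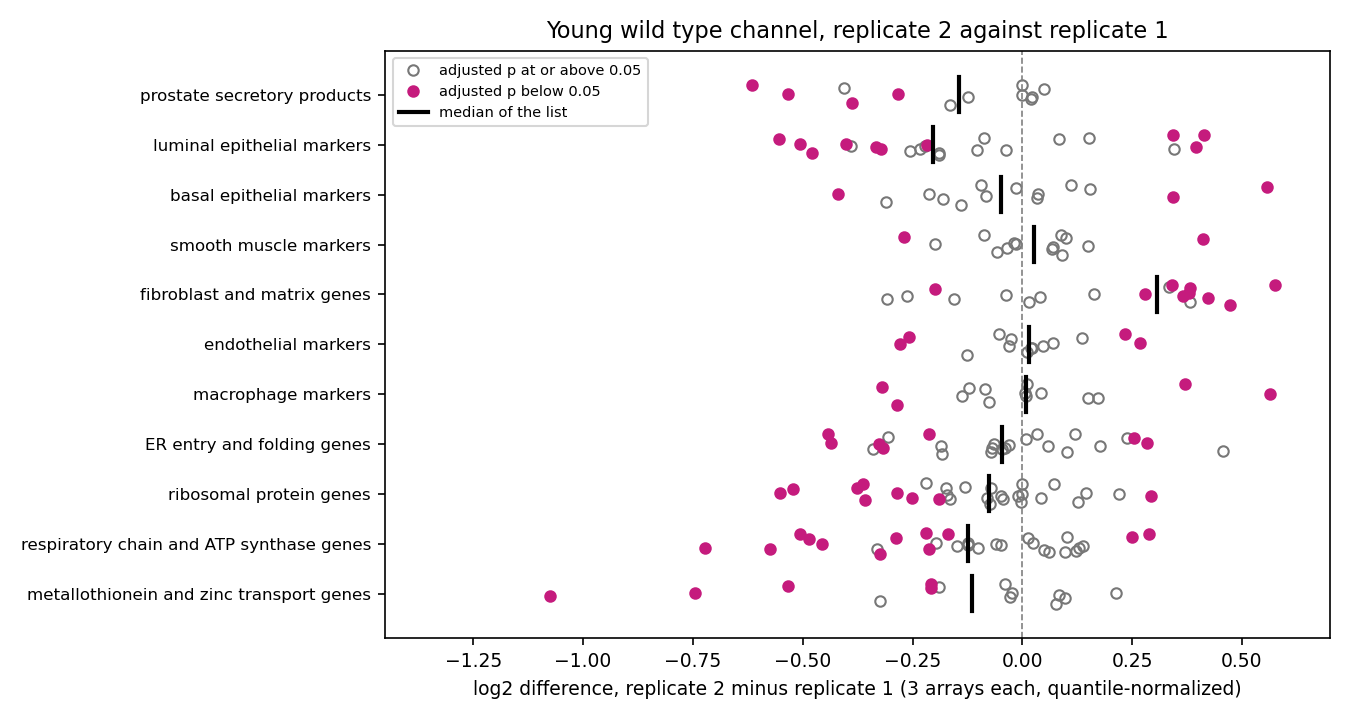
Log2 difference of replicate 2 minus replicate 1 in the young wild type channel, quantile-normalized, 1 point per measured member of 11 lists, filled where the limma adjusted p was below 0.05, with the list median as a black bar. Filled points lie left of 0 for most secretory, luminal and respiratory genes that passed and right of 0 for 8 of 9 matrix genes that passed.

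The luminal list split in both directions, 3 of 22 higher on replicate 2 and 7 on replicate 1 (median -0.20), against 8.29% and 8.96% of all probes. The counts were 0 and 2 without svb9 replicate 2, 0 and 3 without fl26 replicate 2, 0 and 4 without svb9 replicate 1, 0 and 5 without fl26 replicate 1 or old wild type replicate 2, and 5 and 11 without old wild type replicate 1. The share of all probes called moved as well, from 1407 of 29582 without fl26 replicate 2 to 10497 of 28586 without old wild type replicate 1. The claudin Cldn7 fell by 0.40, a call that held without any 1 array and was lost under 75th percentile scaling. Krt18 fell by 0.22 (limma adjusted p = 0.0222), a call kept in 1 of 6 fits that left out an array, and the brighter probe of Krt8 differed by -0.19 (limma adjusted p = 0.0537) and its second probe by -0.57 (limma adjusted p = 0.0188). Cdh1, Foxa1 and Spint2 were higher on replicate 2 by 0.34 to 0.41, each also kept in 1 of 6 such fits. Under 75th percentile scaling 0 of 22 luminal genes and 721 of 27772 probes passed, with the same sign of the luminal median (-0.17). The same scaling of the values with the offset gave 4 luminal genes higher and 9 lower on replicate 2, Cldn7 among the 9. Among basal genes Krt14 fell by 0.42 and Trp63 rose by 0.56, calls lost without fl26 replicate 2 (Krt14) and without any 1 replicate 2 array (Trp63).

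Matrix genes went the other way. Of 18 fibroblast and matrix genes, 8 were higher on replicate 2 and 1, Thy1, on replicate 1 (median 0.31; 0.23 within the second date, and 0.37 under 75th percentile scaling, where 4 and 0 passed), against 8.29% and 8.96% of all probes. Col1a1 was higher by 0.57 ± 0.11 (limma adjusted p = 0.0108; lost without fl26 replicate 2), the growth factor receptor Pdgfra by 0.47 and lumican Lum by 0.38, and the calls of Pdgfra and Lum held without any 1 array. Scaling the values with the offset to the 75th percentile gave 8 higher and 0 lower. Without fl26 replicate 2 the count was 5 higher and 0 lower, and without old wild type replicate 1 it was 9 higher and 4 lower. Over all probes these fits called 1407 of 29582 (723 higher on replicate 2) and 10497 of 28586 (5268 higher). Smooth muscle genes gave 1 of 14 each way, near the share of all probes (Cald1 higher and Actg2 lower on replicate 2), both lost without fl26 replicate 2 or svb9 replicate 2. Whether the make-up of the pools had a part in any of these differences was not tested.

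Other lists were mixed, and the count over all probes moved with the fit as theirs did. It was 1407 of 29582 without fl26 replicate 2 and 10497 of 28586 without old wild type replicate 1. Of 27772 probes, 721 passed under 75th percentile scaling, 4545 when the values with the offset were so scaled, and 1106 with the date as a term. In the respiratory list 10 of 29 were higher on replicate 1, among them Cox5b (0.57) and Cyc1 (0.48), and Cox7c and Cox6c were higher on replicate 2, against 8.96% and 8.29% of all probes; without fl26 replicate 2 the counts were 2 and 0, and with the date as a term 1 and 1, and without old wild type replicate 1 they were 14 and 3. Without svb9 replicate 2 they were 3 and 0, and without fl26 replicate 1 or svb9 replicate 1 they were 5 and 1, and 5 and 2 without old wild type replicate 2. Ribosomal protein genes gave 8 of 28 higher on replicate 1 and 1 on replicate 2, and these counts were 4 and 0 without any 1 of the fl26 or svb9 arrays, 5 and 1 without old wild type replicate 2 and 12 and 4 without old wild type replicate 1. Under 75th percentile scaling, and with the date as a term, they were 2 and 0, and the median went from -0.08 to 0.02 under that scaling. With the values with the offset so scaled, they were 9 and 1, and the median was -0.08. In the zinc list 5 of 14 were higher on replicate 1, a count of 2 without fl26 or svb9 replicate 2, under 75th percentile scaling or with the date as a term, of 3 without fl26 or svb9 replicate 1, and of 4 and 7 without old wild type replicates 2 and 1, with Slc30a2 lower on replicate 2 by 1.08 (adjusted p = 0.000602). Scaling the values with the offset to the 75th percentile gave 5 zinc genes higher on replicate 1. Mt3, which is also in the secretory list, was among them. Esr1 and Nr3c1 were higher on replicate 2 by 0.36 and 0.28. The call of Esr1 was lost without fl26 or svb9 replicate 2, and that of Nr3c1 without either of these or fl26 replicate 1.

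**Figure D5:**
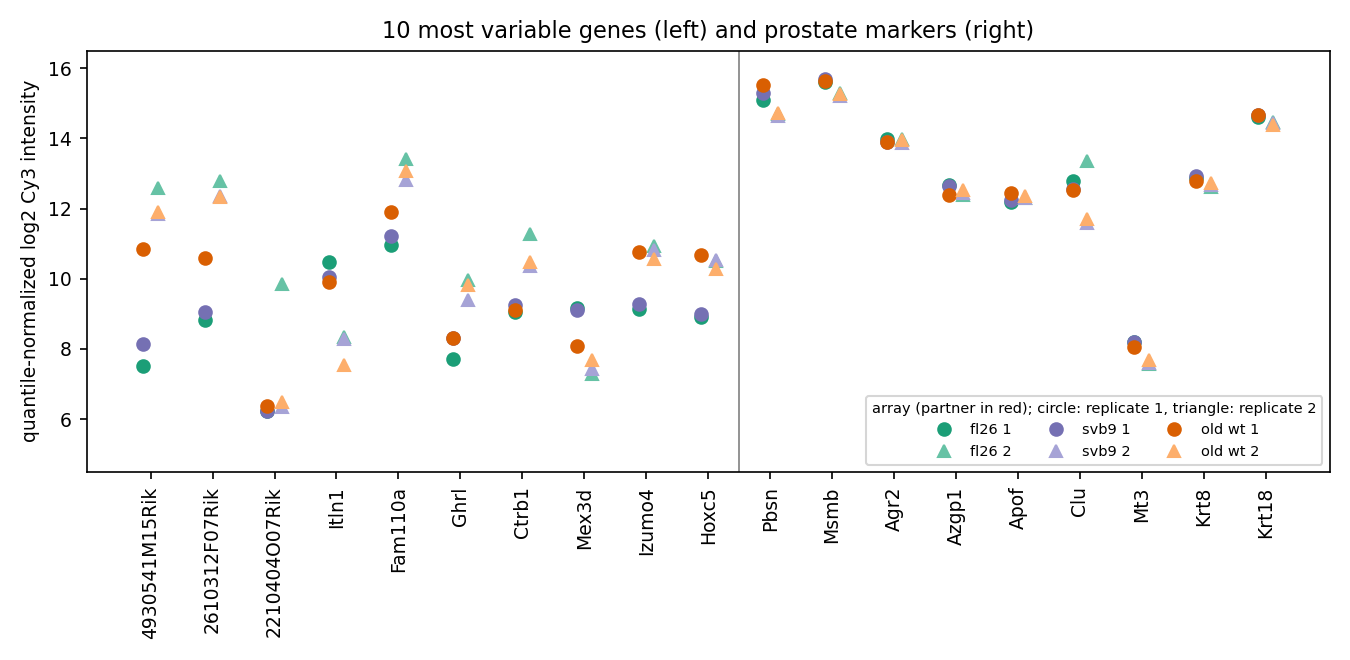
Quantile-normalized log2 green intensity of the 10 genes with the largest spread over arrays (left) and of 9 prostate markers (right), 1 point per array (circles, replicate 1; triangles, replicate 2). For Itln1, Ghrl, Ctrb1 and Fam110a the circles and triangles are apart, 2210404O07Rik is high on fl26 replicate 2 alone, and Agr2 and Apof barely move.

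On these values, which include the offset of 50, the spread of single genes was otherwise narrow. The median SD of a gene over the 6 normalized channels was 0.105, and 137 of 14444 genes (0.95%) ranged over more than 2-fold. The widest was 4930541M15Rik, at 7.53, 12.60, 8.13, 11.85, 10.84 and 11.89; its other probes had SDs of 0.08 and 0.13. 2610312F07Rik ran alike, at 8.83, 12.78, 9.07, 12.36, 10.58 and 12.32. Old wild type replicate 1 lay between the others for both genes. 2210404O07Rik was at 9.86 on fl26 replicate 2 and between 6.24 and 6.50 on the other 5 arrays. Itln1, an intestinal lectin, was higher on replicate 1, at 10.47, 10.04 and 9.92 against 8.34, 8.28 and 7.54, a 4.26-fold difference (limma adjusted p = 0.00178), a call lost with the date as a term.

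Another 3 of these 10 genes were higher on replicate 2 and passed without any 1 array: Fam110a by 3.34-fold, the ghrelin gene Ghrl by 3.09-fold and Ctrb1 by 2.97-fold. Mex3d was 2.49-fold higher on replicate 1, a call lost without fl26 or svb9 replicate 2. Izumo4 and Hoxc5 followed the date instead, low on both arrays of the first date and high on the other 4: Hoxc5 lay at 8.90 and 9.01 there and at 10.27 to 10.69 elsewhere. The 8 smallest p by date also named Dtx4, Zbtb26, Tlm, Olfr1410, Calca and 5830409B07Rik, all at an adjusted p of 0.00532 to 0.00889. By replicate number the lipase-related Pnliprp1 (1.23 lower on replicate 2), Mageh1, Aph1a, Kifc5b, Clec2d and B4galt4 fell and Tax1bp1 (0.83) and the receptor partner Ramp2 (1.12) rose, with adjusted p values of 0.00029 to 0.000602. By red partner the smallest p values were those of Olfr313, AY074887 and Olfr559, none below an adjusted p of 1.

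The bright genes were last set against the red channels, as log2 ratios over young wild type after loess. At an adjusted p below 0.05, limma called 14 of 27855 probes for fl26 (0.0503%), 0 for svb9 (0%; 1254 at an unadjusted p below 0.05) and 0 of 27621 for old wild type (0%; 3269 unadjusted), and 0 of the 50 brightest genes passed. A fit that blocked on replicate number gave 1146 (4.11%), 27 (0.0969%) and 1459 (5.28%) probes. The brightest genes were chosen on green, the denominator of the ratio, and only 2, 7 and 18 of them were unsaturated in both dyes in the comparisons with fl26, svb9 and old wild type. Of these, 1, 1 and 7 passed with the block, and nothing is read from the counts. The comparisons may share young wild type pools, and dye and group cannot be told apart.

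For Pbsn the ratio was -0.67 and 0.94 on the fl26 arrays and -1.34 and 1.21 on the svb9 arrays, opposite signs on replicates 1 and 2, and 0.09 on the 1 old wild type array with a ratio, the other being flagged as an outlier in red. Msmb likewise gave -1.16 and 0.35 for fl26, -1.22 and 0.32 for svb9 and -0.20 on 1 old array. The angiogenin gene Ang had ratios of 1.49 and 1.23 for fl26, 1.69 and 0.98 for old wild type and -0.42 and -0.14 for svb9; limma gave adjusted p values of 0.115 and 0.155 without and 0.0114 and 0.0104 with the replicate block for fl26 and old wild type. Clu gave 1.52 and 2.61 for fl26 (adjusted p = 0.212, and 0.0261 with the block; saturated in red on 1 array), and its young wild type level was also highest on fl26 replicate 2. Krt8 lay between -0.18 and 0.07 on the 5 arrays with a ratio.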

How the data were processed

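Total RNA of ventral prostate was hybridized to 6 two-colour Agilent whole mouse genome arrays. Per the file headers, Feature Extraction A.7.5.1 read the spot and background intensities, which the authors deposited without normalization. That software also gave the deposited log10 ratios, background-subtracted and dye-normalized per the file headers, which serve only as an alternative. Control spots (2256 of 43790) and outlier-flagged spots were left out and saturated spots kept. Probe names came from the RefSeq table (GRCm38.p6) for 20716 of 41174 probes through the systematic name, for 100 through an accession, and from the files for the rest.

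Levels are log2(mean intensity minus background median, floor 1), with spots of 1 probe averaged. Tests used normexp (offset 50), quantile normalization (green) or loess (ratios), and limma 3.58.1 in R 4.3.3, 2-sided, Benjamini-Hochberg adjusted over all probes tested, which were well above background on both arrays of at least 1 group (for ratios, in either dye). Summaries used Python 3.11.15. On simulated data with 200 of 27772 probes changed between replicate numbers, 145, 196 and 200 were recovered at log2 changes of 0.5, 1 and 2. Deviations from group means of same-numbered arrays correlated in green (r = 0.84 for fl26 and svb9, 0.59 and 0.57 for these with old wild type). In the ratios they correlated at 0.59, 0.35 and 0.19. The numbers were therefore tried as pairing, and the replicate block is given where it moves a count. The labels do not say what a number marks. Because the pairing was read from these same data and number overlaps with extraction date, the block counts do not establish it. Where the labels name no separate animals for 2 arrays, p values measure the spread between arrays. The number of arrays limits the precision. Named genes are the 4 markers, the 30 brightest genes, the brightest members of each list, the 10 genes of largest spread and those of smallest p by group and date; genes of smallest p by replicate number and other list members named were chosen after their values were seen. Members and lists were chosen with earlier results of these data known. The olfactory receptor reference and the replicate-number test were added after the data were seen.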

Additional observations from a re-analysis of the deposited data

Results flagged for a closer look

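The glucocorticoid receptor gene Nr3c1 had 1 array far from the others: its level was 4.81 on old wild type replicate 1 and between 5.63 and 6.02 on the other 5 arrays. These levels are not normalized, and that array was the dimmest as a whole, with a median of 4.48 over all probes against up to 5.56 on the others. It was the only one of 31 genes examined in this way whose lowest or highest array lay so far off, and such a gap arises by chance in about 1 in 20 groups of this size, so at least 1 among 31 is no more than chance gives.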

How the results depend on the processing

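The count of genes well above background stayed between 14438 and 18447 under every alternative tried, and the red partner had 0 probes in green under all 16 of them, the replicate block and the date included. Of the 50 brightest genes, 36 to 50 were shared under 14 alternatives and 33 when a gene was represented by the median of its probes. Association with date gave 8362 probes under 75th percentile scaling without the offset and 2346 under that scaling with it. It gave 154 under plain subtraction, 333 with the replicate number as a term and 0 to 7785 with 1 array left out. Association with replicate number gave 721 under 75th percentile scaling without the offset and 4545 under that scaling with it. It gave 1106 with the date as a term and 1407 to 10497 with 1 array left out. Of 117 named members called, 42 kept the call without any 1 array and 0 reversed. For fl26 against young wild type, the 14 probes became 0 with median centring, 6 with the deposited log ratios, 1 without background subtraction, 66 with a variance trend, 475 with the date as a term, 1146 with the replicate block and 0 to 1 with 1 array left out. For svb9 the block gave 27 probes. For old wild type the variance trend gave 152, the date 23, the block 1459 and leaving out 1 array 0 to 1. Negative controls were brighter on the 2 arrays of the first date (4.45 and 4.55) than on the other 4 (2.90 to 3.48), which limits comparisons of dim genes between arrays; the cause of these changes was not tested. Saturation leaves the 10 brightest genes without an order.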

Other observations

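Genes of the cell cycle were measured in a tissue that turns over slowly. Of 16 proliferation genes, 15 were well above background on all 6 arrays and 7 lay above the olfactory receptor reference of 6.54, led by the replication clamp Pcna (9.10 ± 0.18, SD, n = 6 arrays) and the helicase subunits Mcm6 (8.16) and Mcm4 (7.79). The mitotic genes Cdk1 (4.85), Ccnb1 (4.86), Top2a (5.17) and Bub1 (4.34) lay under it, and Mki67 lay close to it at 6.77, 6.41, 6.77, 6.52, 5.68 and 6.68. Its lowest array was old wild type replicate 1, the dimmest array as a whole.

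Prostaglandin enzymes differed in level. Ptges3 (10.32), Ptges (9.08), the degrading enzyme Hpgd (8.63) and Ptgis (7.79) lay above 6.54, whereas the cyclooxygenases Ptgs1 (5.82) and Ptgs2 (4.28, well above background on 2 arrays) did not.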
